A study of Mus musculus with 6 samples.

Results

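The genes described here encode the paired tissue isoforms of cytochrome c oxidase (COX). They are *Cox4i1* and *Cox4i2*, *Cox6a1* and *Cox6a2*, *Cox7a2* and *Cox7a1*, and *Cox8a* and *Cox8b*, which make 4 pairs and 8 of the 47729 genes quantified in each mouse. They were found by gene symbol. The 8 genes were selected on measured values, since the difference between the diets in these same mice was known when they were listed, so their levels and ratios are given as a description with no test.

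Brown adipose tissue (BAT), the fat depot that burns fuel to make heat, was taken from the right interscapular pad of wild type C57BL/6J male mice, housed singly and kept on their diet from 6 to 10 weeks of age. High-fat diet (HFD)-fed mice ate a diet with 45% of its energy as fat and low-fat diet (LFD)-fed mice ate standard rodent chow, each for 4 weeks, so that fat content and the other ingredients of the diets cannot be told apart. In each diet 3 mice were sequenced, the fattest, the middle and the leanest by fat mass, and the labels do not tie the replicate numbers to fat mass. The SDs and standard errors therefore rest on 3 mice per diet that were picked to differ in fat mass, and a whole piece of tissue was sequenced, so that fewer cells of a type and less RNA per cell cannot be told apart.

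COX, or complex IV, is the last enzyme of the respiratory chain and passes electrons from cytochrome c to oxygen while pumping protons across the inner mitochondrial membrane. Its catalytic core is encoded in mitochondrial DNA, and a ring of small subunits encoded in the nucleus surrounds that core. For some of the small subunits mammals keep a broadly expressed gene (*Cox4i1*, *Cox6a1*, *Cox7a2* and *Cox8a*) and a tissue-restricted gene. *Cox6a2*, *Cox7a1* and *Cox8b* are the heart and skeletal muscle types, and *Cox4i2* is known from lung and from oxygen-sensing vascular cells. *Cox7a1* and *Cox8b* are also abundant in brown fat, and the study names *Cox6a2* as a signature gene of brown adipocytes.

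The promoters of the 7a and 8 pairs are shown because both genes of each pair were abundant in this tissue and their proportions differed between the diets. Each RefSeq window (GRCm38.p6) runs from 250 bases before to 50 bases after the gene start and is written 5′ to 3′ along the gene, with matches to the searched motifs in capitals. The windows are chr7:30183921-30184220 (plus strand) for *Cox7a1*, chr9:79759804-79760103 (minus strand) for *Cox7a2*, chr7:140900397-140900696 (minus strand) for *Cox8b* and chr19:7217567-7217866 (minus strand) for *Cox8a*.
Cox7a1: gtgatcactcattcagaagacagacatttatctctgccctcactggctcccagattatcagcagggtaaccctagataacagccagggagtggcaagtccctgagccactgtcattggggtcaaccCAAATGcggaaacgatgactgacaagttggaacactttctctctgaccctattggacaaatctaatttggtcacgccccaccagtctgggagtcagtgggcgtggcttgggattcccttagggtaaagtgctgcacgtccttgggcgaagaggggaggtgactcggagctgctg
Cox7a2: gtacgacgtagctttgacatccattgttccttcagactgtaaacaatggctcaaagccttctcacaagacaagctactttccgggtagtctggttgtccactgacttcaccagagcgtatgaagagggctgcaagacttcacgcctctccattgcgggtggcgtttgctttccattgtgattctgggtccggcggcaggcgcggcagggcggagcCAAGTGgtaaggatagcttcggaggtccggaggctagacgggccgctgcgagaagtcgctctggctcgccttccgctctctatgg
Cox8b: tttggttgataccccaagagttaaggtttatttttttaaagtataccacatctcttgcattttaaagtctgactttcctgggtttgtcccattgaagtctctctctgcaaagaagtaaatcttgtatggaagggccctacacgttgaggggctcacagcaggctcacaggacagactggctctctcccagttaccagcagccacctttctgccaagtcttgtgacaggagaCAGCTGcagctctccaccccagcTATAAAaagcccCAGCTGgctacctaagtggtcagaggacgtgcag
Cox8a: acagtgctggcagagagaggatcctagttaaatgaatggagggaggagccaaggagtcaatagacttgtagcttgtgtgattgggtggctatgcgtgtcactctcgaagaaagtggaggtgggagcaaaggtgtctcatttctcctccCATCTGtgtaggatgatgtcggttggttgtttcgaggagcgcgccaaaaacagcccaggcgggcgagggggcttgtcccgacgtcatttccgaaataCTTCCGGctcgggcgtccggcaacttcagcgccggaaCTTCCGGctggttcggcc

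The motifs searched on both strands were the TATA box motif TATAAA, the core of the ETS factor motif CCGGAAG, the E-box motif CANNTG and the half-site of estrogen-related receptors AAGGTCA. Of the 32851 RefSeq promoter windows of the same length, 13.6% held TATAAA, 8.86% CCGGAAG, 72.3% CANNTG and 4.72% AAGGTCA. *Cox8b* was the only one of the 5 isoform promoters at hand with TATAAA, at window position 255, where the gene start is position 251, and it also held CANNTG at positions 232 and 267. *Cox8a* held CCGGAAG on the minus strand at positions 246 and 283 and CANNTG at position 149. *Cox6a1*, whose window is not printed, held CCGGAAG on the minus strand at position 235. *Cox7a1* held only CANNTG, at position 127, and *Cox7a2* only CANNTG, at position 216. AAGGTCA was in none of the 5 windows.

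Among the 5 isoform promoters at hand, the broad and restricted ones also differed in base composition. The windows of *Cox4i1*, *Cox4i2* and *Cox6a2* were not at hand. The windows of the broad genes *Cox6a1*, *Cox7a2* and *Cox8a* held 32, 20 and 19 CpG dinucleotides, with a GC content of 63.0%, 56.7% and 56.0%. The restricted *Cox7a1* and *Cox8b* held 7 and 2 CpG dinucleotides, with a GC content of 53.0% and 48.3%. Over all windows the median was 7 CpG dinucleotides and 52.7% GC. All of this is a description of the printed letters, and binding of no factor was measured.

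Levels are given in TPM, counts divided by transcript length and scaled to the same total in every mouse, so that genes can be compared within a mouse, and always in the order of replicates 1, 2 and 3. *Cox4i1*, the broad form of subunit IV, was at 1193, 1474 and 706 TPM in HFD-fed mice and at 1356, 878 and 517 TPM in LFD-fed mice. It was the most abundant of the 8 genes in 5 of 6 mice, and the diets overlapped. *Cox6a1*, the broad form of subunit VIa, was at 694, 713 and 395 TPM in HFD-fed and 818, 377 and 295 TPM in LFD-fed mice. *Cox7a2*, the broad form of subunit VIIa, was at 342, 405 and 225 TPM in HFD-fed and 406, 218 and 140 TPM in LFD-fed mice. *Cox8a*, the broad form of subunit VIII, was at 786, 856 and 474 TPM in HFD-fed and 1136, 565 and 354 TPM in LFD-fed mice. For all 4 broad genes, replicate 3 was the lowest mouse of its diet and the ranges of the diets overlapped.

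The highest mouse exceeded the lowest by 2.77-fold to 3.21-fold for the broad genes. The restricted genes were spread far more widely, by 6.32-fold for *Cox4i2*, 14.2-fold for *Cox8b*, 20.3-fold for *Cox7a1* and 110-fold for *Cox6a2*.

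*Cox6a2*, the muscle form of subunit VIa, was at 1.05, 2.89 and 1.71 TPM in HFD-fed mice and at 46.1, 116 and 22.4 TPM in LFD-fed mice. All 3 HFD-fed mice were below all 3 LFD-fed mice. The HFD values rested on 14, 28 and 18 counts, and the LFD values on 496, 975 and 162 counts. The 95% exact Poisson interval of the lowest count, 14, was 7.65 to 23.5, which covers counting error only. *Cox6a2* was the least abundant of the 8 genes in each HFD-fed mouse, while in each LFD-fed mouse *Cox4i2* held that place.

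*Cox7a1*, the form of subunit VIIa found in heart, muscle and brown fat, was at 916, 930 and 224 TPM in HFD-fed mice and at 297, 125 and 45.9 TPM in LFD-fed mice. HFD-fed replicates 1 and 2 were the highest, and LFD-fed replicate 1 lay above HFD-fed replicate 3, so the diets overlapped. *Cox8b*, the matching form of subunit VIII, was at 1731, 1439 and 544 TPM in HFD-fed and 1030, 388 and 122 TPM in LFD-fed mice. The order of the mice was nearly that of *Cox7a1*: LFD-fed replicate 1 again lay between HFD-fed replicates 1 and 2 above it and HFD-fed replicate 3 below it. *Cox8b* was the most abundant of the 8 genes in HFD-fed replicate 1 and only the fifth in LFD-fed replicate 3.

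*Cox4i2*, the restricted form of subunit IV, was at 1.94, 7.08 and 5.07 TPM in HFD-fed mice and at 1.12, 1.31 and 2.69 TPM in LFD-fed mice. LFD-fed replicate 3 was above HFD-fed replicate 1, so the diets overlapped in TPM. These levels came from 28, 74 and 58 counts in HFD-fed and 13, 12 and 21 counts in LFD-fed mice, and the 95% exact Poisson interval of 12 was 6.20 to 21.0.

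**Figure D1:**
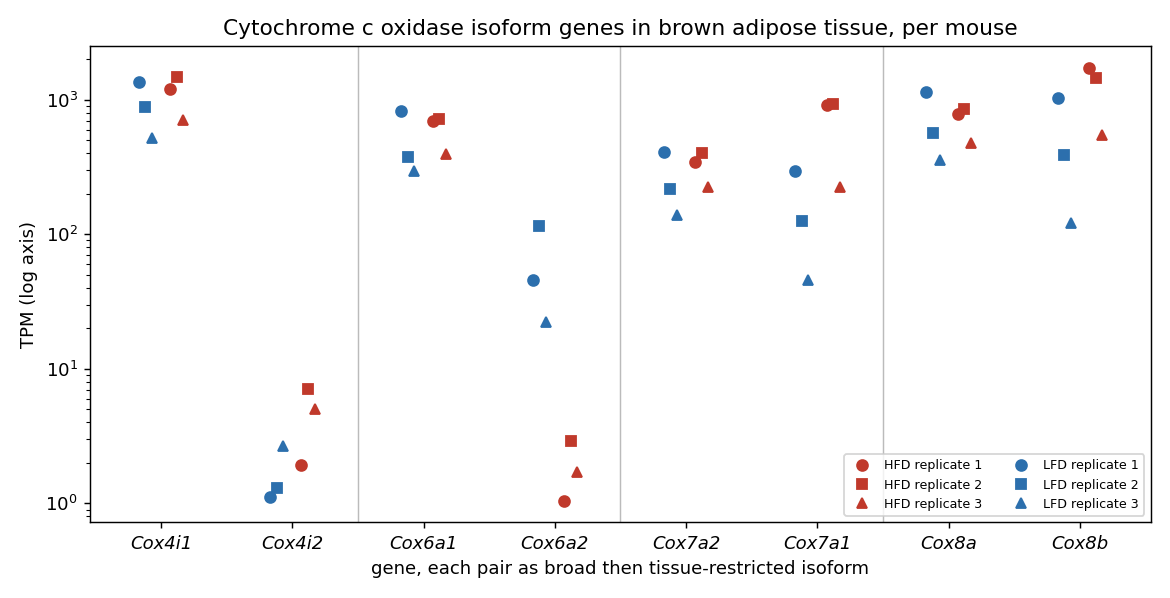
TPM (log axis) of the 8 COX isoform genes in each mouse, with HFD-fed mice in red, LFD-fed mice in blue and the replicate number as the symbol. The broad isoforms span at most 3.21-fold over the 6 mice, whereas *Cox6a2* spans 110-fold, with all HFD-fed mice below all LFD-fed mice.

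Mean levels over the 3 mice of a diet followed the same lines. *Cox6a2* averaged 1.88 ± 0.932 TPM under HFD and 61.3 ± 48.4 TPM under LFD (SD, n = 3 each). *Cox7a1* averaged 690 ± 404 TPM under HFD and 156 ± 128 TPM under LFD (SD, n = 3 each). *Cox8b* averaged 1238 ± 619 TPM under HFD and 513 ± 467 TPM under LFD (SD, n = 3 each). For *Cox7a1* and *Cox8b* the ranges of the diets overlapped, as given above. *Cox8a*, its broad partner, averaged 705 ± 204 TPM under HFD and 685 ± 405 TPM under LFD (SD, n = 3 each).

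In the fit across all genes, which is made on counts and given here as log2 fold change of HFD-fed over LFD-fed mice with its standard error, the restricted genes lay further from 0 than the broad ones. *Cox6a2* was at -4.88 ± 0.72, a 29.4-fold lower level with HFD. *Cox7a1* was at 2.18 ± 1.03, *Cox4i2* at 1.64 ± 0.46 and *Cox8b* at 1.29 ± 1.03. The restricted isoforms thus lay on both sides of 0. The broad genes were at 0.39 ± 0.68 (*Cox4i1*), 0.33 ± 0.72 (*Cox6a1*), 0.40 ± 0.68 (*Cox7a2*) and 0.09 ± 0.72 (*Cox8a*), each within 1 standard error of 0. The sign of every broad gene turned when a mouse was left out: the lowest values were -0.012 for *Cox4i1*, -0.010 for *Cox7a2* and -0.33 for *Cox8a* without LFD-fed replicate 3, and -0.12 for *Cox6a1* without HFD-fed replicate 1. Without LFD-fed replicate 1 the same 4 genes were at 1.20 to 1.44. The restricted genes kept their sign in all 14 alternatives.

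**Figure D2:**
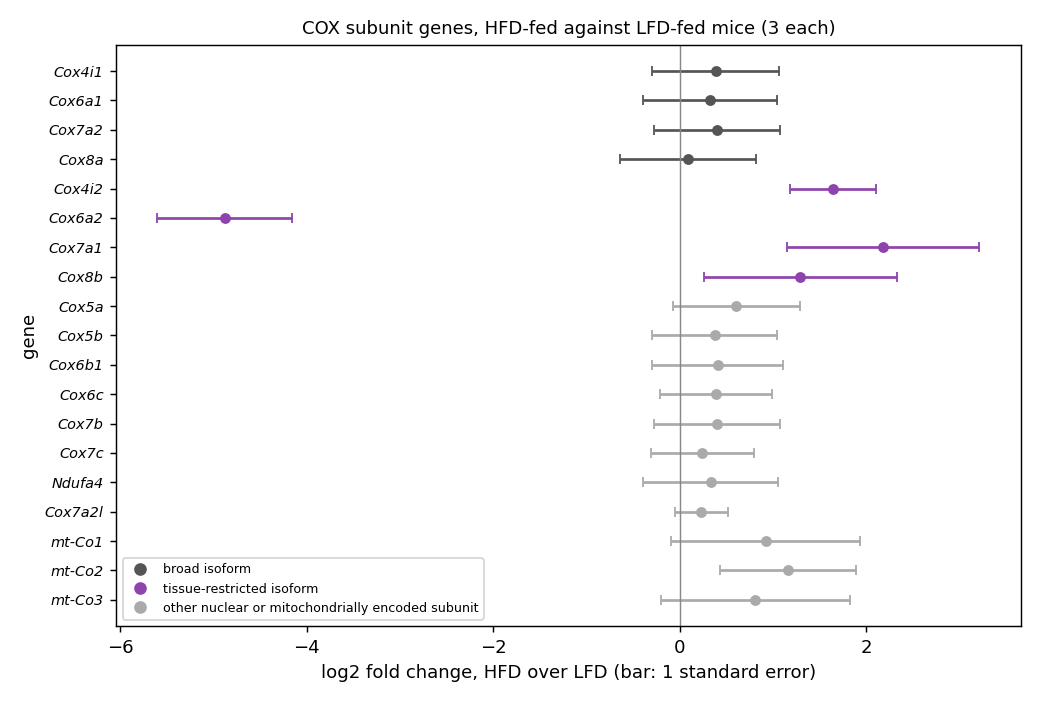
Log2 fold change of HFD-fed over LFD-fed mice with 1 standard error for the 8 isoform genes, the 8 other nuclear COX subunits and the 3 mitochondrially encoded subunits. The broad isoforms lie at 0.09 to 0.40, with *Cox8a* below the range of the other nuclear subunits (0.23 to 0.60), whereas *Cox6a2* lies at -4.88 and *Cox7a1* at 2.18.

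All 8 isoform genes passed the filter on low counts and were among the 17668 genes tested. With edgeR's quasi-likelihood test, 0 of 8 and 0% of all tested genes had an adjusted p under 0.01 together with a log2 fold change beyond 1.5 in either direction. At an unadjusted p under 0.05, 1 of 8 was lower with HFD (*Cox6a2*), beside 6.62% of all genes, and 1 of 8 was higher (*Cox4i2*), beside 3.86%. In log2 CPM, counts scaled to library size, the diets did not overlap for the same genes, *Cox6a2* being lower, as for 9.23% of all genes, and *Cox4i2* higher, as for 6.72%. DESeq2 at the same thresholds called 1 of 8 (*Cox6a2*, lower), beside 1.53% called lower of the 19965 genes to which it gave an adjusted p. With the replicate number as a block, at an unadjusted p under 0.05, 1 of 8 was lower (*Cox6a2*), beside 8.76% of all genes, and 3 of 8 were higher (*Cox4i2*, *Cox7a1* and *Cox8b*), beside 8.75%. At an adjusted p under 0.05 in that blocked fit the count was 1 (*Cox6a2*, lower), beside 0.877%. Because the genes were listed from this contrast, nothing is read from these counts.

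The composition of each pair within a mouse does not depend on how the libraries were scaled, apart from a small added constant. It is given as the log2 ratio of the broad over the restricted gene, with 0.1 TPM added to each. The 7a pair, *Cox7a2* over *Cox7a1*, was at -1.42, -1.20 and 0.01 in HFD-fed and at 0.45, 0.80 and 1.61 in LFD-fed mice, a difference in means of -1.82. All 3 HFD-fed mice lay below all 3 LFD-fed mice, although the levels of *Cox7a1* alone overlapped. Here and for the ratios, relative levels and sums below, no share over other genes was computed, so nothing is read from a separation. For single genes in log2 CPM, 9.23% of all genes did not overlap and were lower with HFD, and 6.72% were higher. The 8 pair, *Cox8a* over *Cox8b*, was at -1.14, -0.75 and -0.20 in HFD-fed and at 0.14, 0.54 and 1.54 in LFD-fed mice, a difference of -1.44. In this pair too the diets did not overlap, and the restricted gene was the more abundant in every HFD-fed mouse and the less abundant in every LFD-fed mouse.

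In the 7a and 8 pairs the difference between mice of the same replicate number was of like size for all 3 numbers. For the 7a pair it was -1.87, -2.002 and -1.60, with an SD of 0.204. For the 8 pair it was -1.28, -1.29 and -1.74, with an SD of 0.262. By comparison the SD within a diet was 0.768 and 0.593 for the 7a ratio and 0.472 and 0.721 for the 8 ratio, HFD-fed first. The within-diet order was therefore shared: replicate 3 had the lowest restricted share of its diet in the 7a and 8 pairs. The same-number differences were less alike in the 6a pair (5.09, 6.19 and 4.05, SD 1.07) and in the 4i pair (-0.93, -1.60 and -0.44, SD 0.583). Whether same-numbered mice belong together was not tested.

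The 6a pair differed in the opposite sense. *Cox6a1* over *Cox6a2* was at 9.24, 7.90 and 7.77 in HFD-fed and at 4.15, 1.71 and 3.72 in LFD-fed mice, a difference of 5.11 with no overlap. The 4i pair, *Cox4i1* over *Cox4i2*, was at 9.19, 7.68 and 7.09 in HFD-fed and at 10.12, 9.28 and 7.53 in LFD-fed mice. Its difference of -0.99 came with overlapping diets, and the SD within a diet was 1.08 and 1.32. *Cox4i2* never made up more than 0.713% of its pair.

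As a share of the pair's TPM, *Cox7a1* made up 72.8%, 69.7% and 49.9% in HFD-fed and 42.3%, 36.5% and 24.7% in LFD-fed mice. The means were 64.1% ± 12.4 and 34.5% ± 8.95 (SD, n = 3 each). *Cox8b* made up 68.8%, 62.7% and 53.4% in HFD-fed and 47.6%, 40.7% and 25.6% in LFD-fed mice, with means of 61.6% ± 7.72 and 38.0% ± 11.3 (SD, n = 3 each). The majority form of subunit VIII transcripts was thus *Cox8b* in HFD-fed and *Cox8a* in LFD-fed mice. *Cox6a2* made up 0.151%, 0.404% and 0.431% of its pair in HFD-fed mice and 5.34%, 23.5% and 7.05% in LFD-fed mice. The values are shares of RNA, and protein was not measured.

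**Figure D3:**
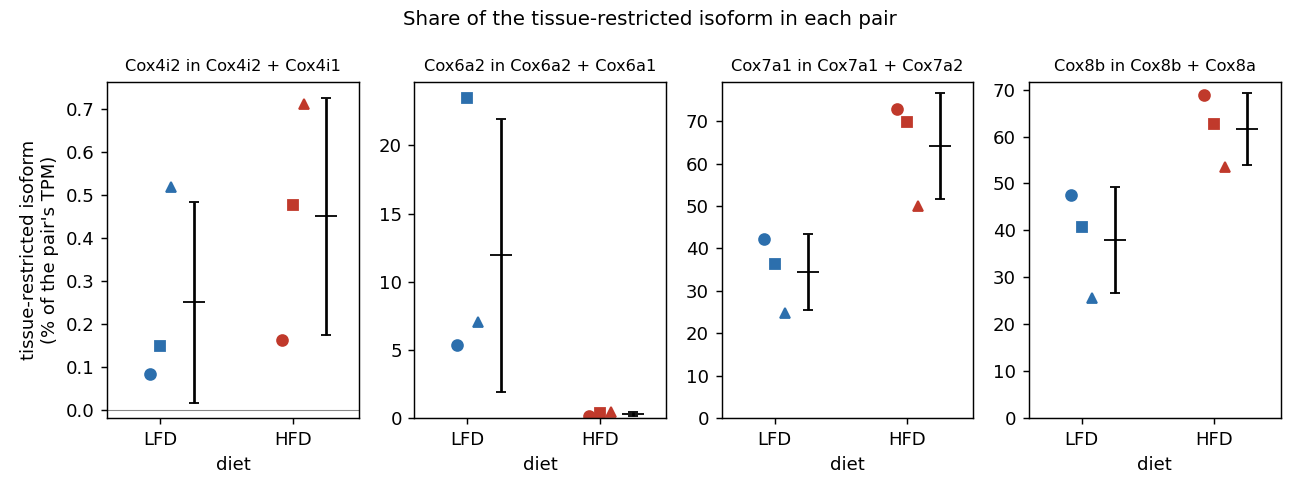
Share of the tissue-restricted isoform in the summed TPM of each pair, by diet. Points are mice, with the symbol giving the replicate number, and the black bar is the mean ± SD of 3 mice. *Cox7a1* and *Cox8b* shares are higher in all HFD-fed mice, the *Cox6a2* share is lower in all HFD-fed mice, and *Cox4i2* shares overlap below 1%.

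The other subunits of the enzyme give a level against which the isoforms can be read. The 8 other nuclear subunit genes lie outside the pairs described here. They were *Cox5a*, *Cox5b*, *Cox6b1*, *Cox6c*, *Cox7b*, *Cox7c*, *Ndufa4* (a late-recognised subunit) and *Cox7a2l* (a relative of the 7a genes that helps to join complexes III and IV). Their log2 fold changes were all above 0, from 0.23 to 0.60, with a median of 0.38 where all tested genes had a median of -0.05. None was called by edgeR, with adjusted p from 0.850 to 0.939, and 0 of 8 had an unadjusted p under 0.05, beside 10.5% of all genes. With the replicate block 1 of 8 did, beside 17.5% of all genes.

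The geometric mean of the 8 genes was 560, 619 and 343 TPM in HFD-fed and 578, 413 and 266 TPM in LFD-fed mice. Relative to it, the broad isoforms were nearly constant. Over the 6 mice their log2 level relative to the other subunits spanned 0.29 (*Cox4i1*), 0.41 (*Cox7a2*), 0.56 (*Cox8a*) and 0.63 (*Cox6a1*). On the same relative scale the restricted isoforms spanned 2.76 (*Cox8b*), 2.84 (*Cox4i2*), 3.24 (*Cox7a1*) and 7.09 (*Cox6a2*).

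*Cox7a1* relative to the other subunits was at 0.71, 0.59 and -0.62 in HFD-fed and at -0.96, -1.72 and -2.53 in LFD-fed mice, with no overlap and a difference of 1.96. *Cox8b* was at 1.63, 1.22 and 0.66 in HFD-fed and at 0.83, -0.09 and -1.13 in LFD-fed mice. It still overlapped, by LFD-fed replicate 1 above HFD-fed replicate 3, and its difference was 1.298. *Cox6a2* was lower in all HFD-fed mice on this scale, by a difference of -5.05. *Cox4i2* overlapped, with a difference of 1.03, and the broad genes differed by -0.14 (*Cox8a*) to 0.14 (*Cox7a2*).

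**Figure D4:**
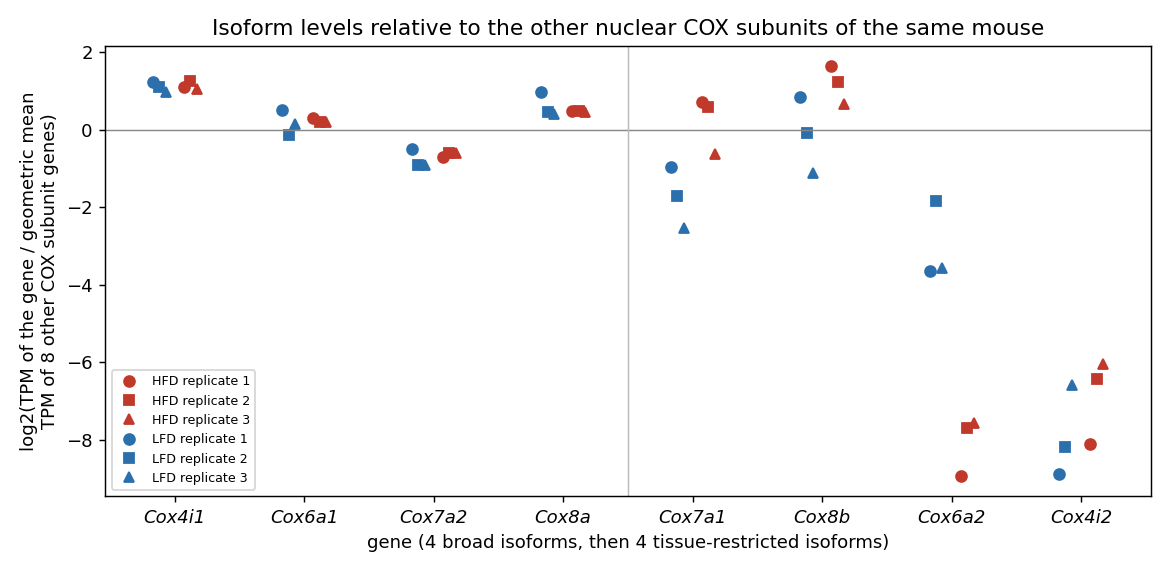
Log2 level of each isoform gene relative to the geometric mean TPM of 8 other nuclear COX subunit genes of the same mouse (HFD-fed red, LFD-fed blue, symbol for the replicate number). The 4 broad isoforms span 0.29 to 0.63 over the 6 mice, and the 4 restricted isoforms 2.76 to 7.09.

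The summed RNA of a pair followed its restricted member where that member was abundant. For the 7a pair the sum was 2.25, 2.16 and 1.31 times the geometric mean of the other subunits in HFD-fed mice and 1.22, 0.832 and 0.700 times in LFD-fed mice, with no overlap. For the 8 pair it was 4.50, 3.71 and 2.96 times in HFD-fed and 3.75, 2.31 and 1.79 times in LFD-fed mice, which overlapped. The 4i sum stayed between 1.95 and 2.39 times and the 6a sum between 1.15 and 1.49 times over the 6 mice. In the 4i and 6a pairs the broad gene supplied most of the RNA in every mouse.

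The catalytic core, encoded by *mt-Co1*, *mt-Co2* and *mt-Co3*, had log2 fold changes of 0.92 ± 1.01, 1.16 ± 0.73 and 0.81 ± 1.01, with edgeR adjusted p from 0.663 to 0.867. Relative to the nuclear subunits of the same mouse, all 3 were higher under HFD with no overlap between the diets, by 0.52, 0.79 and 0.53 on the log2 scale. In log2 CPM and in TPM the diets overlapped for all 3, and no share over all genes was computed on the relative scale. *Cycs*, the somatic cytochrome c that feeds the enzyme, was at 0.70 ± 0.72 with an edgeR adjusted p of 0.829. Mitochondrially encoded genes held 22.7%, 16.5% and 8.50% of the counts in HFD-fed and 13.8%, 9.12% and 3.87% in LFD-fed mice. Replicate 1 had the highest and replicate 3 the lowest share in both diets. The part of this share in the isoform levels was not tested, and in a fit without the mitochondrially encoded genes *Cox7a1* was at 2.16 and *Cox6a2* at -4.89.

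Of the germ cell isoforms, *Cox6b2* was at 1.36 to 4.54 TPM, with a log2 fold change of 0.97 ± 0.48 and an edgeR adjusted p of 0.545, and *Cox7b2* and *Cox8c* were listed at 0 in all 6 mice. The 25 assembly factors, which insert copper and heme and build the enzyme, were all tested. In edgeR 17 lay above 0 and 8 below, with a median log2 fold change of 0.32 and adjusted p from 0.514 to 0.981. Of the 25, 0 had an unadjusted p under 0.05, beside 10.5% of all genes. With the replicate block 5 of 25 did, beside 17.5% of all genes, and without LFD-fed replicate 1 there were 11 of 25, beside 14.3%. *Cox17*, the copper chaperone, had the highest fitted value of the list, 1.05 ± 0.48, with an edgeR adjusted p of 0.514.

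Muscle genes moved with *Cox6a2*. Of 20 skeletal muscle fibre genes 19 were tested. All 19 had a log2 fold change below 0 with an unadjusted p under 0.05 in edgeR, beside 6.62% of all genes. None of the 19 passed adjustment in edgeR (adjusted p from 0.170 to 0.348). Their median was -6.19, and for 18 of them the diets did not overlap in log2 CPM, as for 9.23% of all genes. With the replicate block 13 of 19 had an adjusted p under 0.05, beside 0.877% of all genes lower in that fit. The summed TPM of the list was 50.9, 209 and 12.6 in HFD-fed and 5887, 14454 and 2105 in LFD-fed mice, so that LFD-fed replicate 2, the mouse with the most *Cox6a2*, also had the most muscle RNA. Per 1000 TPM of the muscle list, *Cox6a2* was at 20.6, 13.8 and 136 TPM in HFD-fed and at 7.83, 7.99 and 10.6 TPM in LFD-fed mice. The part of muscle RNA in the *Cox6a2* level was not tested. Of 6 heart muscle genes, *Myh6*, *Nppa*, *Nppb* and *Myl7* were at or near 0, at most 0.470 TPM in any mouse. *Myl4* and *Sln* were lower in every HFD-fed mouse, also in log2 CPM, as for 9.23% of all genes. Both were highest in LFD-fed replicate 2, the mouse with the most muscle RNA, at 47.8 and 39.4 TPM.

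*Cox7a1* and *Cox8b* are also muscle-type isoforms, and the order of the mice in these genes was not that of the muscle list. In HFD-fed replicate 1, with 50.9 TPM of the muscle list, they stood at 916 and 1731 TPM. In HFD-fed replicate 3, with 12.6 TPM of it, they stood at 224 and 544 TPM. In LFD-fed replicate 2, with 14454 TPM of it, they stood at 125 and 388 TPM. The part of muscle RNA in the *Cox7a1* and *Cox8b* levels was not tested. *Ucp1*, the uncoupling protein that defines brown adipocytes, was at 2728, 4021 and 796 TPM in HFD-fed and at 443, 11.03 and 76.0 TPM in LFD-fed mice, with an edgeR adjusted p of 0.480. The HFD-fed mice were all above the LFD-fed mice, and LFD-fed replicate 2 was far below the others. The labelled tissue was thus borne out unevenly by its defining marker. Without LFD-fed replicate 2, the log2 fold change was 1.88 for *Cox7a1*, 0.97 for *Cox8b* and -4.35 for *Cox6a2*, and the 7a and 8 ratios differed by -1.90 and -1.54.

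Of the 12 adipocyte genes listed for brown fat 8 lay above 0 and 4 below in edgeR, with a median log2 fold change of 1.35 and adjusted p from 0.351 to 0.996. The 8 above 0 ran from 0.02 (*Pparg*) to 3.67 (*Ucp1*). The summed TPM of that list ranged from 5802 to 11893 in HFD-fed and from 3815 to 13806 in LFD-fed mice. *Fabp4*, at 2624 to 8136 TPM, was the most abundant gene of the list in every mouse, so the sum is not a measure of *Ucp1* or of brown adipocytes alone. The 4 genes below 0 were *Adipoq*, *Cidec*, *Plin1* and *Fabp4*, and none of these had an unadjusted p under 0.05, beside 6.62% of all genes lower with HFD. Of those above 0, *Dio2* and *Prdm16* had one in edgeR, beside 3.86% of all genes higher with HFD. In log2 CPM the diets did not overlap for *Ucp1* and *Prdm16*, both higher under HFD, as 6.72% of all genes were. The part of adipocyte content in the levels of *Cox7a1* and *Cox8b* was not tested. *Cox7a1* over *Cox8b*, both brown fat and muscle types, was 0.529, 0.647 and 0.411 in HFD-fed and 0.288, 0.323 and 0.378 in LFD-fed mice, without overlap.

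**Figure D5:**
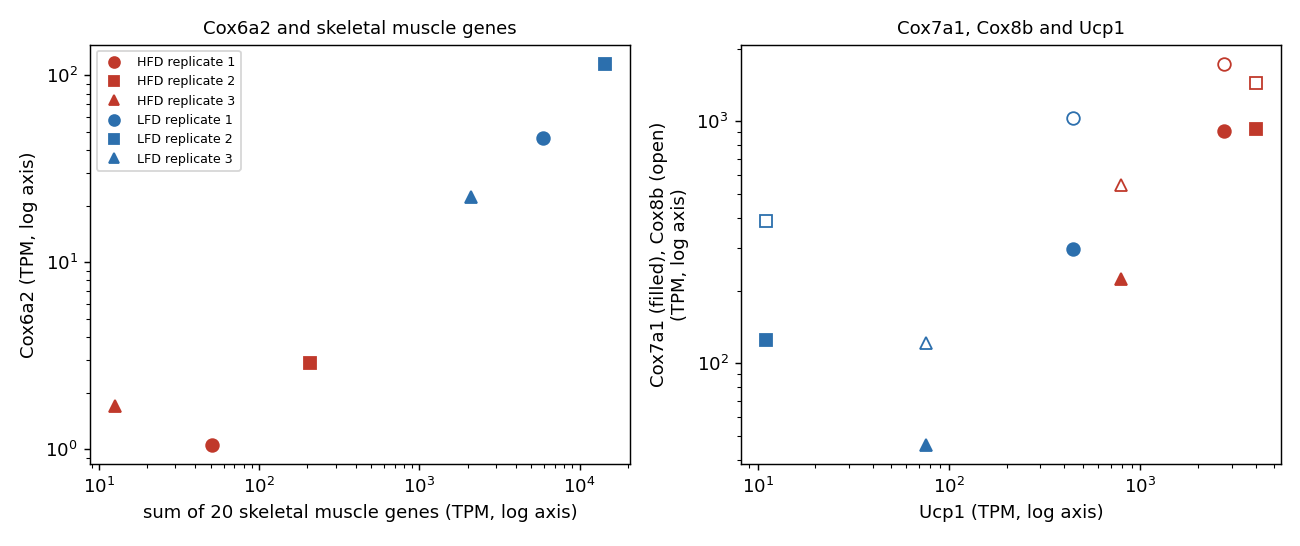
Left, *Cox6a2* against the summed TPM of 20 skeletal muscle genes. Right, *Cox7a1* (filled) and *Cox8b* (open) against *Ucp1*. All axes are log-scaled TPM, each point is a mouse, colour gives the diet (HFD-fed red, LFD-fed blue) and the symbol the replicate number. HFD-fed mice hold 12.6 to 209 TPM of the muscle list and at most 2.89 TPM of *Cox6a2*, and LFD-fed mice at least 2105 and 22.4 TPM.

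*Cox4i2* was set beside markers of mural cells, the contractile cells of vessel walls. Of 11 such genes 8 lay above 0 and 3 below in edgeR, with a median log2 fold change of 0.50 and adjusted p from 0.382 to 0.920. In log2 CPM the diets did not overlap for 2 of the 11, *Rgs5*, a pericyte regulator of G protein signalling, and *Higd1b*, a mural cell marker, both higher under HFD, as 6.72% of all genes were. In TPM both overlapped. The summed TPM of the list was 132, 293 and 324 in HFD-fed and 142, 190 and 335 in LFD-fed mice, which overlapped throughout. The part of mural cell content in the *Cox4i2* level was not tested. Macrophage markers, another cell type of this depot, summed to 1391, 1673 and 2944 TPM in HFD-fed and 351, 1693 and 3321 TPM in LFD-fed mice. Of the 5 genes tested 3 lay above 0 and 2 below, with a median of 0.54 and edgeR adjusted p from 0.413 to 0.989. *Adgre1* and *Cd68* were higher under HFD at an unadjusted p under 0.05 in edgeR, as 3.86% of all genes were. For both the diets did not overlap in log2 CPM, as for 6.72% of all genes higher under HFD, but overlapped in TPM.

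Genes with the most similar profile were ranked by Pearson correlation of log2 CPM over the 6 mice, among 9722 genes. This describes likeness in 6 libraries and is blind to the size of the change. Among the nearest to *Cox6a2* were *Ldb3* (r = 0.998), which encodes a Z-disc protein of muscle, and *Dicer1* (0.997). *Ldb3* spanned 5.76 log2 CPM over the mice, as *Cox6a2* did with 5.74, whereas *Dicer1* spanned 0.53. For *Cox7a1* the nearest were *Acadl*, *Etfa* and *Sucla2* (each 0.999), which encode mitochondrial enzymes of fatty acid oxidation, its electron transfer and the citric acid cycle. For *Cox8b* they were *Idh3g* (0.999), a citric acid cycle gene, *Ppp1r3d* (0.998) and *Acot13* (0.997), a mitochondrial thioesterase. For *Cox4i2* they were *Pcdh12* (0.981), a protocadherin of endothelium, *Ier3* (0.978) and *Unc5b* (0.975), a netrin receptor of vessels.

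Among the 8 genes themselves, the broad isoforms followed each other over the 6 mice, with r from 0.983 to 0.992. *Cox7a1* and *Cox8b* were at 0.980 with each other, and *Cox8b* at 0.924 to 0.971 with the broad genes. *Cox6a2* stood apart from every broad gene (r from -0.18 to -0.03), as *Cox4i2* did (0.075 to 0.229), and those 2 genes ran opposite to each other at -0.88. The 6 points of each correlation share library scaling, and no test was made.

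Reads of the isoforms of a pair could be told apart in the annotated transcripts. The longest stretch of identical sequence shared by the members of a pair was 14 bases for the 4i, 12 for the 6a, 12 for the 7a and 11 for the 8 pair, against reads of 75 bases. The expected counts of 7 of the genes were whole numbers, with no fraction at all in the deposited value, in all 6 mice, and those of *Cox4i1* in 1 of 6. In GENCODE M21 on GRCm38, *Cox7a1* (ENSMUSG00000074218), *Cox6a2* (ENSMUSG00000030785) and *Cox8b* (ENSMUSG00000025488) lie on chromosome 7, at positions 30184144-30186078, 128205435-128206387 and 140898945-140900446, so 3 of the 4 restricted genes share a chromosome. *Cox4i2* lies at 152754173-152765037 of chromosome 2. The broad partners lie on 4 other chromosomes, *Cox4i1* on 8, *Cox6a1* on 5, *Cox7a2* on 9 and *Cox8a* on 19.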

How the data were processed

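BAT RNA of 3 HFD-fed and 3 LFD-fed mice was depleted of ribosomal RNA and sequenced as single-end reads of 75 bases. Per the submitters' processing notes and the methods of the study, the authors trimmed reads with Trimmomatic 0.36, quantified them with RSEM 1.3.0 on GRCm38.p4 with Ensembl 84 genes and tested them with DESeq2 1.10.1. For each mouse the authors deposited expected counts, which are not normalized and may be fractional where a read matches several genes. The deposited TPM values are the expected counts divided by effective length and scaled to a fixed total per mouse, so abundant RNA such as mitochondrial RNA lowers all others.

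Expected counts were rounded, giving 17156991 to 21603487 counts per mouse. Tests were run with edgeR 4.0.16 under R 4.3.3 (quasi-likelihood test, TMM, edgeR's filter on low counts, Benjamini-Hochberg adjustment over all 17668 genes tested). The common dispersion was 0.201, a coefficient of variation of 0.448. The standard error of an edgeR log2 fold change is its absolute value divided by the square root of the quasi-likelihood F statistic. A value within 1 standard error of 0 is thus one with an F under 1. Log2 CPM used a prior count of 2. Intervals of counts are 95% exact Poisson intervals and cover counting error only. Replicates of a diet were separate libraries (their counts differed by a chi-square of 71.7 to 558 per degree of freedom). Labels give each diet the numbers 1 to 3. Deviations from the mean of the diet correlated at 0.498, 0.229 and 0.522 for same-numbered mice and at -0.528 to 0.053 for other mice. The deviations of a diet cancel out, so these correlations constrain each other and cannot show that the numbers pair the mice. The numbers were used as a pairing in the block fit and the same-number differences. Whether same-numbered mice belong together was not tested. Nothing in the labels says what they share.

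The isoform genes, the lists and the tests were chosen with earlier results of these data known. Named are the 8 isoform genes, genes of the COX and cell type lists, and the 3 genes most like each restricted isoform (mean log2 CPM of at least 3, predicted genes and RIKEN clones left out), of which 1 gene is not reported here. *Itgam*, whose symbol stands on more than 1 gene ID, was left out of the macrophage list. Alternatives were RLE size factors, no filter, at least 10 counts in every mouse, DESeq2 1.42.0, the replicate block, mitochondrially encoded genes left out, log2(TPM + 1), other pseudocounts in the ratios, ratios of counts, and each mouse left out. Tests were tried on simulated data first. Gene positions come from GENCODE M21 and promoters from RefSeq, where 5 of the 8 isoform genes matched.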

Additional observations from a re-analysis of the deposited data

How the results depend on the processing

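The 4 restricted isoforms kept their direction in all 14 alternatives and the 4 pair ratios in all 10. Counts depended on the setting. At an unadjusted p under 0.05 the count over all genes was 1851, and 3094 with the replicate block. Over the isoform genes it was 2, and 4 with the block. With the block it was also 1 for the other nuclear subunits and 5 for the assembly factors, where both were 0 without it, and without a filter on low counts 1 for the assembly factors. At the thresholds used for calls, DESeq2 called 412 genes and 1 isoform gene where edgeR called 0. An adjusted p under 0.05 with the block, chosen after seeing the data, gave 184 genes and 1 isoform gene. The block changed no other call, and the cause of these differences was not tested.

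Leaving out each mouse in turn moved the count over all genes between 1106 (without HFD-fed replicate 3) and 3146 (without LFD-fed replicate 3). The isoform genes counted moved between 1 (without HFD-fed replicate 2, where 1131 genes passed) and 6 (without LFD-fed replicate 1, where 2627 passed), the other subunits between 0 and 3 and the assembly factors between 0 and 11, both highest without LFD-fed replicate 1. Calls stayed at 0. The log2 fold change of *Cox4i1* ranged from -0.012 to 1.27, of *Cox6a1* from -0.12 to 1.44, of *Cox7a2* from -0.010 to 1.42 and of *Cox8a* from -0.33 to 1.20. That of *Cox4i2* ranged from 1.32 to 1.89, of *Cox6a2* from -5.32 to -4.35, of *Cox7a1* from 1.56 to 3.63 and of *Cox8b* from 0.59 to 2.91. The pair ratio differences ranged from -1.71 to -0.42 (4i), 4.37 to 5.59 (6a), -2.26 to -1.50 (7a) and -1.74 to -1.04 (8).

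On the log2(TPM + 1) scale, where the median over all tested genes shifted from -0.05 to -0.18, 1 isoform gene and not 2 had diets that did not overlap, and *Cox4i2* was at 1.00. Relative to the other nuclear subunits, an alternative chosen after seeing the data, *Cox4i2* was at 1.03 and *Cox8a* at -0.14. *Cox4i2* in LFD-fed and *Cox6a2* in HFD-fed mice rest on 12 to 28 counts per mouse, which limits both folds.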
